A study of Mus musculus with 23 samples.

Results

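A microRNA is cut from a longer transcript that folds back into a hairpin. Drosha frees the hairpin in the nucleus, Dicer removes its terminal loop in the cytoplasm, and 1 arm of the remaining duplex is loaded into an Argonaute protein as the mature microRNA. The loop is a by-product of the Dicer cut and is normally degraded, so loop reads are rare in small RNA libraries. In retina the cluster of mir-183, mir-96 and mir-182 is known for its high expression in photoreceptors. The deposited count matrix gives each locus up to 4 rows, for mature, precursor, stem-loop and unannotated reads. The 143 stem-loop rows described here are all of those whose name carries that class, of 1356 rows in total (903 mature, 231 precursor and 79 unannotated).

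Small RNA of 23 mouse retinas taken at postnatal day 90 was sequenced, 1 library per retina. Wild-type C57B mice were untreated (2 libraries). All other mice carried 1 P23H rhodopsin knock-in allele (P23H+/- KI), an allele whose misfolding rhodopsin causes retinitis pigmentosa in people. Of these, some were left uninjected (5 libraries) or injected with saline (2 libraries). The remaining P23H mice were treated with the human rhodopsin gene (human gRHO, 3 libraries) or the mouse rhodopsin gene (mouse gRho, 11 libraries). Each gene was given in its genomic form as DNA nanoparticles. Libraries whose titles differ only in the eye were taken as 1 mouse, which gave 2 mice for WT, 3 uninjected, 1 with saline, 2 with human gRHO and 7 with mouse gRho. That reading of the titles is an inference. The titles of the uninjected mice all start with 1 number and those of the human gRHO mice with another. The numbers of the saline and the mouse gRho mice are also found in no other group, and the WT titles have no such number. If this first number is a cage, no cage held mice of more than 1 treatment. Cage and treatment then cannot be told apart in any comparison between these groups.

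Stem-loop reads numbered 9148 in all 23 libraries together, between 138 and 1152 per library, beside between 5968388 and 16048954 mature miRNA reads. The level used below, RPM, is the number of reads per 1000000 mature miRNA reads of the library. On that scale they ranged from 13.1 to 81.6 with a median of 39.7. A count of 0 in 1 library allows a level of up to 0.187 to 0.503 RPM, depending on its depth (3 reads, counting error only). The summed stem-loop rows equalled the loop reads of the deposited alignment table in 23 of 23 libraries. For every 100 precursor reads a library held between 13.2 and 94.7 stem-loop reads, with a median of 42.8. The right retina of mouse gRho mouse 1 and the library of uninjected mouse 2 were poor in retinal miRNAs. Their mature rows summed to 52.9 and 198 RPM for mir-182, mir-183 and mir-96, against 296 to 1101 in the other 21, and to 2612 and 4574 RPM for the 6 rows of mir-124 and mir-9, against 6141 to 13478. Without both, 0 stem-loop rows were called between any groups of mice by edgeR, as with them. These are bulk retinas, so a lower level from fewer cells of a type and from less RNA per cell cannot be told apart.

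The hairpins of the leading rows are printed from RefSeq (GRCm38.p6) because the loop is the part these rows are named for. Capitals mark the bases between both mature arms, in lower case outside. The first is the photoreceptor hairpin mir-182 (chr6:30165918-30165992, minus strand) with its cluster neighbours mir-96 (chr6:30169446-30169551, minus strand) and mir-183 (chr6:30169668-30169737, minus strand). The other pair, let-7c-1 (chr16:77599657-77599750, plus strand) and let-7c-2 (chr15:85706603-85706697, plus strand), shares the mature let-7c sequence of the 5′ arm but not the loop.
mir-182: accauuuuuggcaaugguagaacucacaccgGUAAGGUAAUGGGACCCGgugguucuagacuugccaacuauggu
mir-96: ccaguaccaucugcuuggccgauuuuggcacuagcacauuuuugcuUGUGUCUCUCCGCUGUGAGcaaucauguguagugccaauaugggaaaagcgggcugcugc
mir-183: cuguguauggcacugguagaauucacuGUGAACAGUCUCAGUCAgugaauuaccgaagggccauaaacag
let-7c-1: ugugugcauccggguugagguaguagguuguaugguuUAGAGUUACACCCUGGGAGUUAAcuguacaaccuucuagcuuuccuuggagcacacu
let-7c-2: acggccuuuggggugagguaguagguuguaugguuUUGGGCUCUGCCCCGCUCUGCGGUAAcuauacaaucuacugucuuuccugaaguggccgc

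The hairpins of 4 further rows described below, among those with the most reads, are mir-16-1 (chr14:61631880-61631972, minus strand), mir-29b-1 (chr6:31063023-31063093, minus strand), mir-149 (chr1:92850378-92850443, plus strand) and mir-141 (chr6:124717914-124717985, minus strand), with the loop again in capitals.
mir-16-1: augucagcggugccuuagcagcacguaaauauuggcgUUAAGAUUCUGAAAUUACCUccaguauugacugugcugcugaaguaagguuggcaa
mir-29b-1: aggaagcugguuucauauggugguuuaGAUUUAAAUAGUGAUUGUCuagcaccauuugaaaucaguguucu
mir-149: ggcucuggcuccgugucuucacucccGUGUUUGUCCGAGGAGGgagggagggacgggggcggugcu
mir-141: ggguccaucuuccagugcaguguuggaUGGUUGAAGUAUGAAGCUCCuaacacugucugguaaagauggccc

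RefSeq hairpins matched 119 of the 143 rows, and 95 of these have both mature arms in the table. The loop between the arms was at least 15 bases long in 91.6% of the 95, and in 65.8% of all 644 hairpins with both arms, which include the 95. Among the 549 hairpins with both arms and no stem-loop row, the share was 61.4%. The median loop length was 18 bases for the rows and 16 for all hairpins. Among the 43 rows with both arms and at least 10 reads, 42 had such a loop. The alignment table counts reads of at least 15 bases, so a shorter loop could not give a counted read by itself. The 8 rows with a shorter loop held 55 reads.

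A few rows held most of the reads. Of the 143 rows, 82 had under 10 reads in all libraries together and made up 2.69% of the class, 29 had a single read, and 44 were seen in 1 library only. A library held reads in 24 to 64 rows, and 5 rows were seen in every library (mir-182, let-7c-1, let-7a-1, mir-30e and let-7f-2). The 15 rows with the highest mean share over the 15 mice held 80.8% of the reads. After mir-182, the read totals of all but mir-30e were 646 for let-7c-1, 358 for mir-219a-2, 328 for let-7a-1, 323 for mir-1983, 205 for mir-16-1, 170 for mir-29b-1, 155 for mir-204, 126 for mir-149, 118 for let-7f-2, 98 for let-7b, 94 for mir-141, and 90 each for mir-129-2 and mir-145a.

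**Figure D1:**
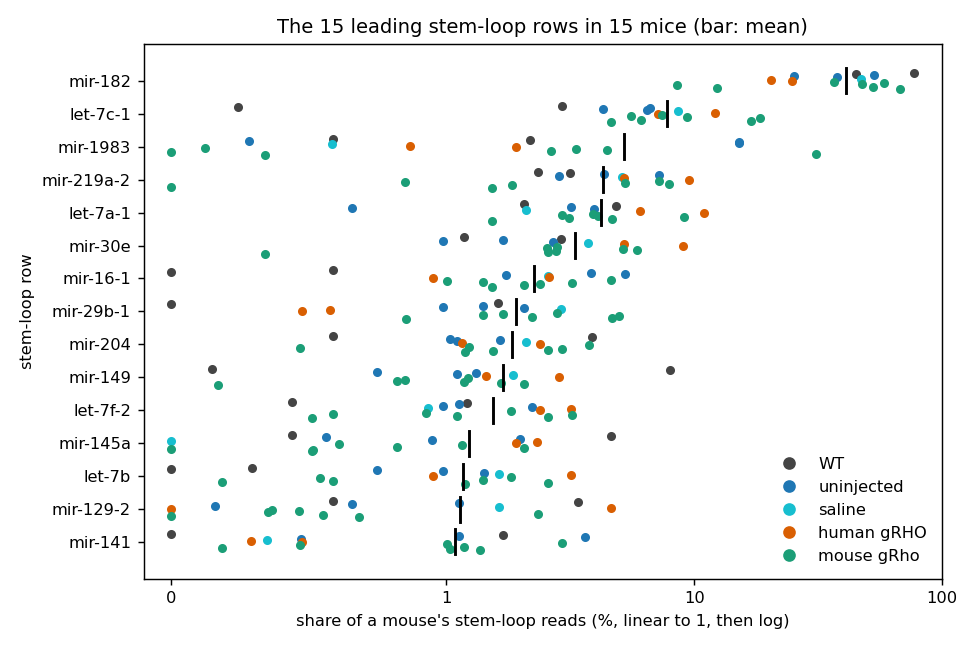
Share of each mouse's stem-loop reads (x axis, percent, linear to 1 and logarithmic above) held by the 15 rows with the highest mean share (y axis). Points are the 15 mice coloured by group and black bars are means. The mean share of mir-182 is 41.0%, and that of let-7c-1, the next, is 7.80%.

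The mir-182 row was the largest by far, with 4326 reads or 47.3% of the class, and a mean share of 41.0% (SD 19.9, n = 15 mice). It led 19 of 23 libraries, while let-7c-1 and mir-1983 led 2 each. The row held 528 and 186 reads in the WT libraries, 319, 249, 77, 133 and 106 in the uninjected ones, and 212 and 193 in the saline ones. It held 37, 34 and 52 reads in the human gRHO libraries, and between 12 and 725 (median 170) in the 11 mouse gRho libraries. The 3 human gRHO libraries lay below each library from WT, uninjected or saline mice, and inside the range of the mouse gRho libraries.

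In RPM, mir-182 stood at 54.7 and 11.6 in the WT mice, at 22.7, 11.03 and 15.5 in the uninjected mice, and at 18.8 in the saline mouse. The human gRHO mice had 3.18 and 5.25, and the mouse gRho mice ran from 1.24 to 46.8 with a median of 19.3. The mouse gRho mice thus spread over both the lowest and the second highest level of all 15 mice. Within that group mouse 4 (1.24) and mouse 6 (3.22) were the lowest, and mouse 7 (46.8) and mouse 2 (37.6) the highest.

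**Figure D2:**
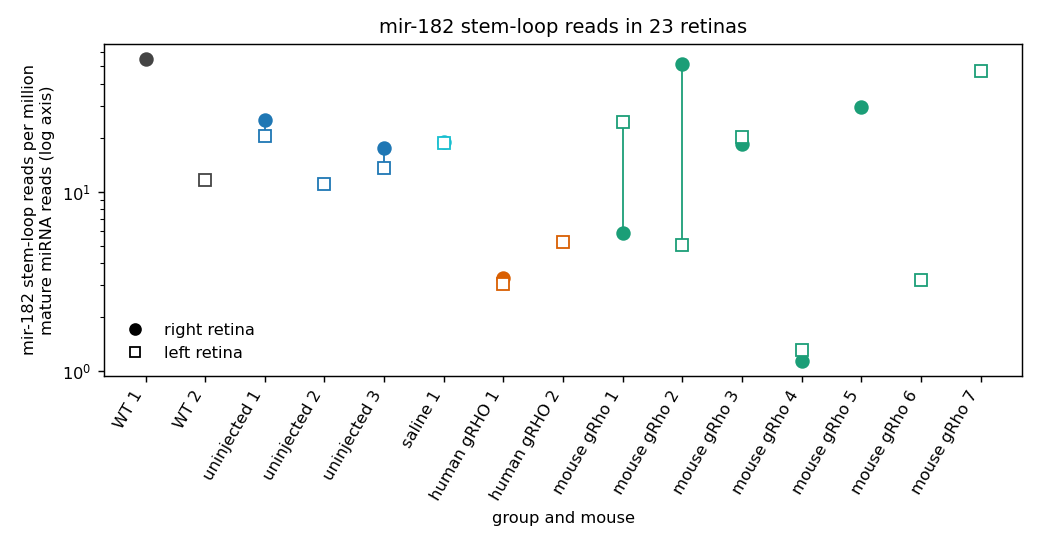
Level of the mir-182 stem-loop row (y axis, RPM, log axis) in each of the 23 retinas, by group and mouse (x axis). Filled circles are right retinas, open squares left retinas, and lines join both retinas of 1 mouse. Both retinas lie close together in 6 of 8 mice and far apart in mouse gRho mice 1 and 2.

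The mature and the stem-loop row of mir-182 were not always low in the same libraries. The deposited mature row of mir-182 held between 68 and 2240 reads per library (median 1496) and the precursor row between 0 and 4. All mature rows together summed to 10.4% to 19.5% of the reads that the alignment table counts as mature, so a mature row is not the full level of its microRNA. In the human gRHO libraries the mature row held 1944, 1610 and 1563 reads, inside the range of the WT and uninjected libraries, whereas the stem-loop row was low. Per 100 reads of the mature row, the stem-loop row had 2.00 and 3.33 reads in the human gRHO mice, 12.3 to 25.3 in the uninjected mice and 11.1 to 23.6 in the WT mice. In the mouse gRho mice that ratio ran from 2.11 to 45.4. Elsewhere both rows were low in the same library, but not in proportion. In the right retina of mouse gRho mouse 1, with the lowest mature row (68 reads, against 1959 on the left), the stem-loop row was also lower than on the left (58 reads, or 5.90 against 24.4 RPM). Per 100 reads of the mature row, that right library alone had 85.3 stem-loop reads, against 12.4 on the left. Uninjected mouse 2 held 304 mature-row and 77 stem-loop reads, and mouse gRho mouse 6 held 332 and 24. Their ratios were 25.3 and 7.23 per 100.

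The other members of the photoreceptor cluster gave few stem-loop reads, 56 for mir-96 and 34 for mir-183 against 4326 for mir-182. Both lie beside mir-182 on the same strand. All 3 loci of the cluster had a row, and together they held 48.3% of the class. The mir-96 row was highest in WT mouse 2 with 17 reads and in WT mouse 1 with 7, and held between 0 and 6 in the other libraries. The mir-183 row held 19 of its 34 reads in the right retina of mouse gRho mouse 2, which also had the most mir-182 reads (725). The tested stem-loop rows most like mir-182 across the 15 mice were mir-204 (Pearson r = 0.38) and mir-184 (r = 0.32). These correlations of log2 levels are low, and the mice share the scaling by mature reads.

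The let-7 family, which is abundant in differentiated cells, came next with 11 of 14 loci seen and 1428 reads or 15.6% of the class. Its summed level ran from 1.62 to 9.62 RPM over the 23 libraries. The let-7c-1 row held 13 to 58 reads in all libraries but 1. It had 20 and 1 reads in the WT libraries, 35, 36, 13, 19 and 22 in the uninjected, 31 and 43 in the saline, 18, 24 and 15 in the human gRHO and 14 to 58 (median 33) in the mouse gRho libraries. Only WT mouse 2 stood apart, with 1 read at the largest depth of all.

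Loop sequence differs between hairpins that share a mature microRNA, and the rows of such copies differed in which one led. The let-7c-1 stem-loop row held 646 reads and that of let-7c-2 held 93, whereas the mature rows held 2998 and 5559007. For let-7a-1 and let-7a-2 the stem-loop rows held 328 and 67 reads and the mature rows 6413049 and 277. For mir-16, a family that restrains the cell cycle, the stem-loop row of mir-16-1 held 205 reads. Its copy mir-16-2, which had the larger mature row (2616 against 958 reads), is not among the 143 stem-loop rows.

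Of 12 families with numbered copies and at least 30 stem-loop reads, the copy with the most stem-loop reads also had the largest mature row in 7 and did not in 5. These 5 were let-7c, let-7f, mir-16, mir-1a and mir-29b. The mir-29b-1 row held 170 stem-loop reads and mir-29b-2 held 10, with mature rows of 7389 and 8342. The mir-219a-2 row held 358, all those of its family. Mature rows of such copies can share reads, and how the authors placed them is not given in the sources used here.

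The mir-219a-2 row, of a microRNA known from oligodendrocytes and their precursors, was the third by reads. It held between 7 and 40 reads in 20 libraries and 0 in the other 3, which were the right retina of mouse gRho mouse 4, the left retina of mouse 6 and the left retina of mouse 2. In these 3 libraries the mature row held 7, 1 and 1 reads, against 38 to 547 in the others, so both rows were low in the same libraries. The hairpin lies opposite that of Mir219b, and reads of both cannot be told apart unless strand was counted. The same holds for 7 other matched rows, mir-129-2, mir-126a and mir-451a among them.

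The mir-1983 row separated libraries by their content of other RNA. Its hairpin (chr13:21896918-21897049, minus strand) is shown because a tRNA gene for isoleucine, n-TItat14, occupies positions 19 to 112 of its 132 bases, in capitals here.
mir-1983: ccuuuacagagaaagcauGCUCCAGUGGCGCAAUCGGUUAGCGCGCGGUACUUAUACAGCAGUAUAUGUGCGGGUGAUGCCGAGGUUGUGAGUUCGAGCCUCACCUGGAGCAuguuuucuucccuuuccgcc
It was the single hairpin of 1005 in the RefSeq table to overlap an annotated tRNA gene. GUUCGANNC, the letters of the tRNA promoter's B box, searched on the hairpin's own strand, was found in 5 of the 1005 hairpins (0.498%) and in 2 of the 119 matched rows.

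The mir-1983 row held 33, 63 and 46 reads in 3 uninjected libraries and 43, 37 and 60 in 3 mouse gRho libraries, and between 0 and 9 in the other 17. The 6 high libraries were those with over 3% rRNA among aligned reads (3.00% to 6.20%, against 0.201% to 0.878%), and they also held more tRNA (1.34% to 3.30%, against 0.175% to 0.438%). The mature row of mir-1983 split in the same way, with 4588 to 16287 reads against 51 to 482. The 6 and the 17 libraries did not overlap in either row. No such split was seen for mir-182, at 3.22 to 18.4 RPM in the 6 libraries and 1.14 to 54.7 in the others. Of 8 loci listed as hairpins within rRNA, snoRNA or tRNA sequence, none had a stem-loop row, and mir-1983 was not on that list.

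**Figure D3:**
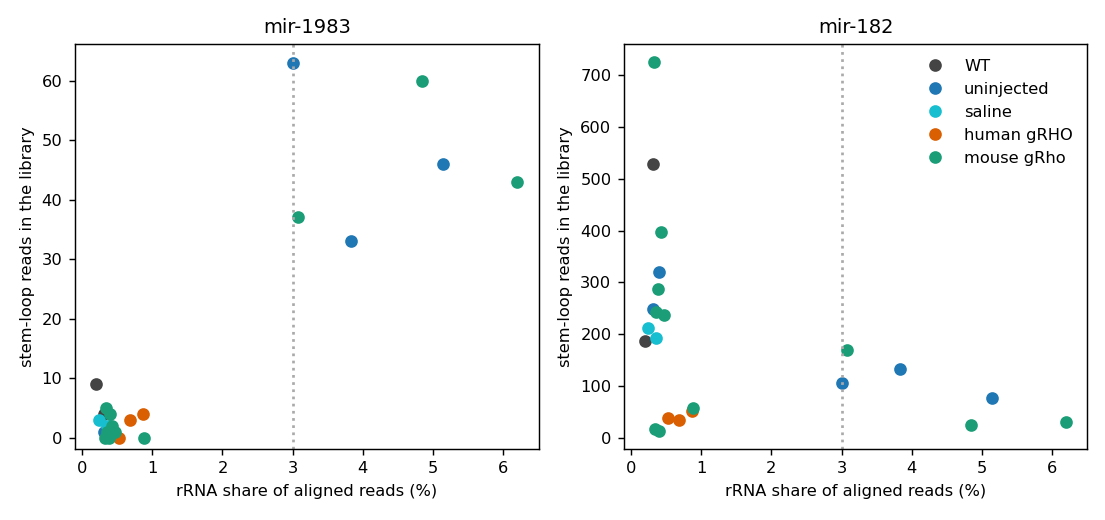
Stem-loop reads of mir-1983 (left) and mir-182 (right) in each of the 23 libraries (y axes) against the rRNA share of aligned reads in percent (x axes), coloured by group, with a dotted line at 3%. All 6 libraries right of the line have at least 33 mir-1983 reads and the other 17 have at most 9.

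Stem-loop rows of microRNAs that mark other tissues were thin, which does not show how much of these tissues a library held. For muscle, the mature rows of mir-1a-1 and mir-1a-2 held 730138 and 5557293 reads, and their stem-loop rows 85 and 6. The vessel list (3 of 7 loci with a row) held 180 reads, led by mir-145a of mural cells (90) and mir-126a of endothelium (81). The surface epithelium list (6 of 9) held 230, led by mir-141 (94) and mir-184 of cornea and lens (87), and the muscle list (4 of 7) held 115, of which mir-1a-1 gave 85. Red blood cell loci (2 of 4) held 55 reads, 48 of them in the mir-451a row, and immune and gliosis loci (2 of 7) held 5, from mir-21a (3) and mir-142a (2), with mir-155, mir-146a and mir-223 among those without a row.

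Neuronal lists were also low beside mir-182. The neuronal loci (7 of 15) held 141 reads, led by mir-9-1 (44), mir-9-2 (38) and mir-138-2 (36), and mir-124-1 held 8. The mir-181 loci (3 of 6) of the inner retina held 37, of which 34 were in the mir-181b-1 row. The mir-204 row, of a microRNA enriched in pigment epithelium, held 155, in 20 libraries and at most 16 in any. Among the remaining lists, mir-29 loci held 180 reads, mir-17/92 loci 49 with 45 from mir-106b, Dlk1-Dio3 loci 18 with 10 from mir-134, and the mirtrons 5, all from mir-877.

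Of the 143 rows, 18 reached 10 reads in at least 3 mice and could be tested. They held 83.5% of the stem-loop reads, and were fitted with 424 rows of the other classes (edgeR quasi-likelihood, Benjamini-Hochberg over all 442 rows, called at an adjusted p under 0.05). None of the 18 was called in any of the 8 comparisons, by edgeR or by DESeq2. At an unadjusted p under 0.05, edgeR gave 3 of 18 for uninjected against WT, 4 for mouse gRho against WT, 4 for human gRHO against uninjected, 3 for human gRHO against mouse gRho, 1 for right against left retina, and 0 for the other 3 comparisons. The share of all 442 rows at that unadjusted threshold was 15.8% for uninjected against WT, 17.6% for mouse gRho against WT, 3.39% for human gRHO against uninjected, and 3.17% each for human gRHO against mouse gRho and for right against left. The counts of 3 and 4 of 18 against WT are thus close to the share of all rows. For the 3 comparisons with 0 of 18, that share was also low. It was 4.3% for mouse gRho against uninjected, 2.94% for saline against uninjected and 0.679% for mouse gRho against saline. After adjustment over all 442 rows the share called was 1.36% for uninjected against WT, 2.49% for mouse gRho against WT, and 0% for each of the other 6. All called rows were mature rows.

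The first comparison asked how heterozygous P23H retinas differ from WT. The summed stem-loop level was 70.7 and 25.7 RPM in the WT mice and 42.6, 43.5 and 41.0 in the uninjected mice, so the uninjected mice lay between both WT mice. The difference in mean log2 level was -0.0076 (two-sided exact permutation p = 1, where 0.1 is the smallest p possible). The stem-loop level without mir-182 was 15.97 and 14.1 in WT and 20.0, 32.5 and 25.5 in the uninjected mice, a difference of 0.77 with no overlap (exact p = 0.2). Per 1000000 total reads these levels were 10.20 and 10.22 in WT and 12.9, 14.0 and 12.2 in the uninjected mice, again with no overlap, but the difference was 0.35 (exact p = 0.1). The uninjected mice 2 and 3 hold all 3 uninjected libraries with over 3% rRNA, and uninjected mouse 1 held 0.36%. Without mir-182, uninjected mouse 1 was the lowest of the 3 per mature read (20.0), but mouse 3 was the lowest per total read (12.2 against 12.9). The part of rRNA in this difference was not tested.

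By row, 11 of the 18 were higher in uninjected than in WT mice and 7 lower, with a median log2 fold change of 0.41 against -0.038 over all 442 rows. The mir-182 row differed by -1.29 (SE 1.16, adjusted p = 0.584 by edgeR). The let-7c-2 row had 0 reads in both WT libraries and 9, 7, 4, 7 and 3 in the uninjected ones, at least 5.41-fold higher over the groups (floor of 3 reads over the WT group, adjusted p = 0.149 by edgeR). The mir-16-1 row had 4 and 0 reads in WT and 9, 32, 16, 7 and 4 in the uninjected libraries (log2 fold change 2.71, SE 1.03, adjusted p = 0.191 by edgeR). The mice of the groups did not overlap in 5 of the 18 rows, all higher in uninjected mice (let-7b, let-7c-2, let-7f-2, mir-16-1 and let-7a-2), where 23.8% of all tested rows were higher without overlap. None of the 18 was lower without overlap, against 3.85% of all.

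The WT libraries differed from each other in these rows. WT mouse 2 had 0 reads for let-7b, let-7c-2, let-7a-2, mir-16-1 and mir-29b-1 and 1 for let-7c-1, against 13 to 58 for let-7c-1 in the other 22 libraries. It had the most reads of any library for mir-149 (33, against 0 to 11), mir-145a (19, against 0 to 12), mir-96 (17, against 0 to 7), mir-129-2 (14, against 0 to 11) and mir-708 (11, against 0 to 6). WT mouse 2 held the most mature miRNA reads (16048954) and reads in 26 stem-loop rows. In RPM it was still the highest for mir-149, mir-145a, mir-96 and mir-708. For mir-129-2 the left retina of the saline mouse was higher (1.07 against 0.872 RPM). With WT mouse 1 left out, 4 rows were called against uninjected mice and the same 4 against mouse gRho mice (let-7c-1, mir-16-1 and mir-29b-1 lower in WT, and mir-149 higher). WT is then the single mouse 2, assumed to vary as the other groups do, and with WT mouse 2 left out 0 rows were called.

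Treatment with the human rhodopsin gene was set against no injection. The summed stem-loop level was 15.5 and 21.2 RPM in the human gRHO mice and 42.6, 43.5 and 41.0 in the uninjected mice, with no overlap. The difference in mean log2 level was -1.23 (two-sided exact permutation p = 0.1, which is the smallest 2 against 3 mice can give). Without mir-182 the levels were 12.3 and 15.9 against 20.0, 32.5 and 25.5, a difference of -0.86 (exact p = 0.2), and of -0.59 (exact p = 0.1) with total reads as the scale. The human gRHO libraries held 0.531% to 0.875% rRNA, more than 2 of the uninjected libraries (0.319% and 0.395%) and less than the other 3 (3.00% to 5.14%). With the rRNA-rich libraries left out and uninjected mouse 1 alone remaining, the summed difference was -1.23 (exact p = 0.333, the smallest possible). Without both libraries poor in retinal miRNAs, of which uninjected mouse 2 is one, it was -1.21 (exact p = 0.333).

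By row, 4 of the 18 were higher and 14 lower in human gRHO mice, with a median log2 fold change of -0.45 against 0.0046 over all tested rows. The mir-182 row differed by -1.83 (SE 1.28, adjusted p = 0.935 by edgeR). The let-7a-2 row held 0, 1 and 0 reads in the human gRHO libraries and 5, 0, 5, 8 and 2 in the uninjected ones (log2 fold change -3.50, SE 1.36, adjusted p = 0.935 by edgeR). The mir-184 row held 0, 2 and 0 reads against 3, 14, 2, 6 and 0 (log2 fold change -2.74, SE 1.17, adjusted p = 0.935 by edgeR).

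Mice of both groups did not overlap in 6 of the 18 rows, all lower with human gRHO (mir-182, mir-16-1, mir-29b-1, mir-141, mir-184 and let-7a-2), where 17.4% of all tested rows were lower without overlap. None of the 18 was higher without overlap, against 9.95% of all. The mir-29b-1 row, of a family that represses collagen genes, held 0, 2 and 1 reads against 4, 11, 3, 2 and 11 in the uninjected libraries. Each of these rows but mir-182 rests on at most 11 reads from the 3 human gRHO libraries.

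**Figure D4:**
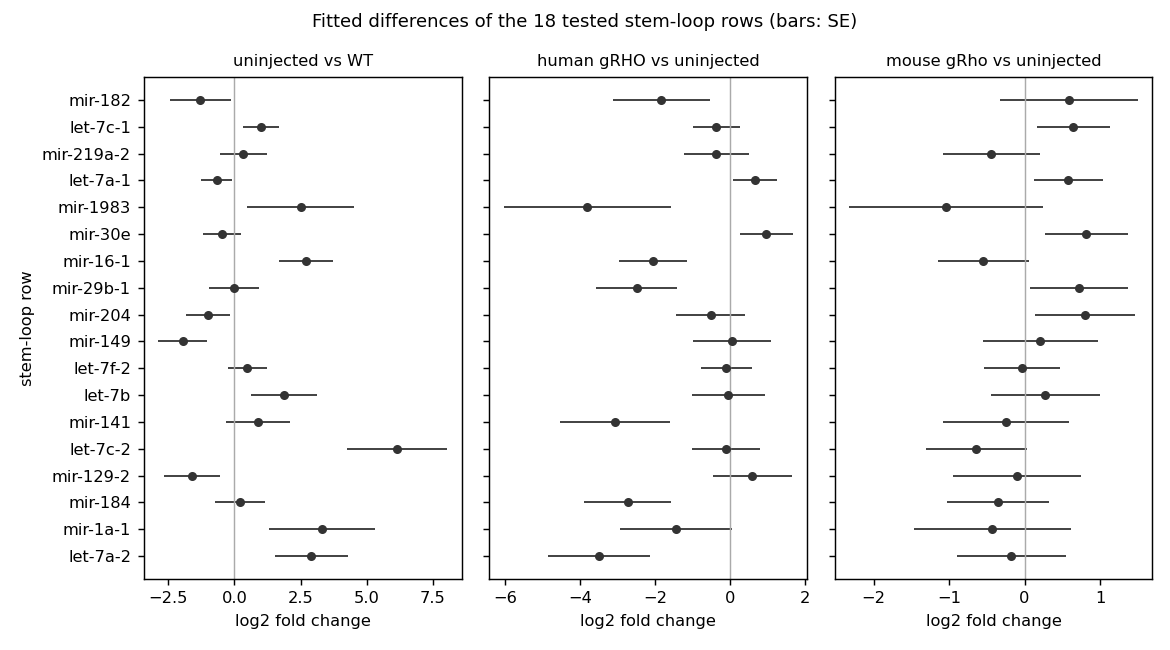
Log2 fold changes (x axes) of the 18 tested stem-loop rows (y axis, most reads at the top) in 3 comparisons, from the edgeR fit, with standard errors as bars. The x axes differ in range. In uninjected against WT, let-7c-2 lies farthest right because WT has 0 reads, and its fitted value is no bound. In human gRHO against uninjected, 14 of 18 points lie left of 0.

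Human gRHO mice were also compared with mouse gRho mice. The summed level of the 7 mouse gRho mice ran from 14.5 to 69.1 RPM (median 41.5) and overlapped that of the human gRHO mice through mouse 4 (14.5). The difference in mean log2 level was -1.14 (exact permutation p = 0.139, smallest possible 0.0278). Leaving out each mouse in turn gave differences from -1.38 (without mouse gRho mouse 4) to -0.91 (without human gRHO mouse 1). Mouse 4 is the only mouse gRho mouse not above both human gRHO mice, so leaving it out separates the groups by construction. The exact p of 0.0357 is then the smallest that 2 against 6 mice can give, and is no test of the difference. Of the 18 rows, 5 were higher and 13 lower in human gRHO mice, with a median log2 fold change of -1.02 against -0.043 over all 442 rows. The mir-29b-1 row held 0, 2 and 1 reads against 1 to 21 (median 7) in the mouse gRho libraries (log2 fold change -3.21, SE 1.02, adjusted p = 0.997 by edgeR), and let-7a-2 differed by -3.33 (SE 1.28, adjusted p = 0.997). This comparison shares the human gRHO mice with the one before.

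Treatment with the mouse rhodopsin gene against no injection gave no difference beyond the spread. The summed levels overlapped, and their means differed by -0.089 on the log2 scale (exact permutation p = 0.817). Of the 18 rows, 8 were higher and 10 lower, with a median log2 fold change of -0.065 against 0.065 over all rows. The mir-182 row differed by 0.59 in the edgeR fit (SE 0.91, adjusted p = 0.982), and by -0.28 as a mean of log2 levels over mice, so even its sign depends on how mice are averaged. The lowest p-values belonged to mir-30e (0.82, SE 0.55) and let-7c-1 (0.65, SE 0.48), both with an adjusted p of 0.926 by edgeR.

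**Figure D5:**
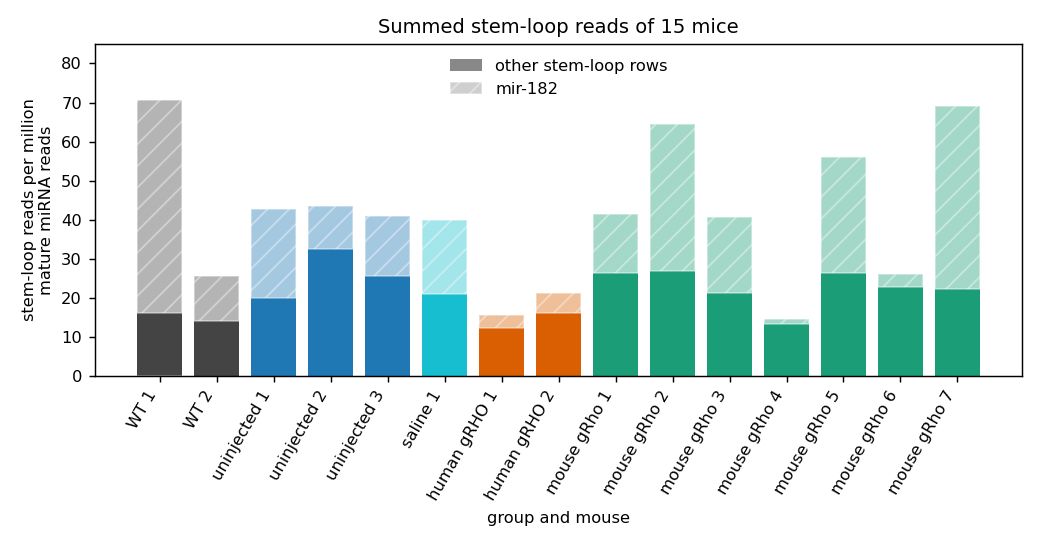
Summed stem-loop level of each of the 15 mice (y axis, RPM), divided into mir-182 (pale and hatched) and the other stem-loop rows (solid), coloured by group. The total runs from 14.5 to 70.7, and the solid part from 12.3 to 32.5.

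The mouse gRho mice set against WT differed in the summed level by -0.097 on the log2 scale (exact permutation p = 0.861). The let-7c-2 row, at 0 reads in WT and 0 to 9 (median 4) in the mouse gRho libraries, was at least 3.19-fold higher over the groups (adjusted p = 0.137 by edgeR). The let-7c-1 row was higher by 1.66 (log2, SE 0.63, adjusted p = 0.177 by edgeR), where WT mouse 1 stood at 2.07 RPM and WT mouse 2 at 0.062, against 2.69 to 4.42 in the 7 mouse gRho mice. Both WT mice lay below all mouse gRho mice in this row. The share of all tested rows higher without overlap was not counted for this comparison, so whether this is particular to the row is not known. The 23.8% for uninjected against WT comes from 3 against 2 mice and is no like background for 7 against 2.

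Saline was given to 1 mouse, assumed in the fit to vary like the other groups. Its summed level of 39.8 RPM was below all 3 uninjected mice by a small margin (log2 difference -0.089, exact permutation p = 0.25, the smallest possible). The mir-30e row held 21 and 11 reads in the saline libraries against 3, 15, 3, 15 and 2 in the uninjected ones (log2 fold change 1.23, SE 0.82 by edgeR). The mir-1983 row held 3 and 2 reads against 2, 1, 46, 33 and 63 (log2 fold change -3.76, SE 2.91 by edgeR). Its high counts were in the rRNA-rich uninjected libraries, and the part of rRNA in this difference was not tested. Mouse gRho mice differed from the saline mouse by -0.00026 in the summed log2 level (exact p = 1). The smallest p-values there were for mir-184 (-1.23, SE 0.91) and mir-129-2 (-1.46, SE 1.09), each with an adjusted p of 0.996 by edgeR.

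Right and left retinas were compared in the 8 mice with both. The summed level was higher on the right in 5 of 8, by a mean of 0.24 on the log2 scale (SD 0.64, exact sign-flip permutation p = 0.391). The mir-182 level of both eyes was within 1.30-fold in 6 of 8 mice. In mouse gRho mouse 1 the right retina was 4.14-fold lower (5.90 against 24.4 RPM), and in mouse gRho mouse 2 it was 10.2-fold higher (725 against 30 reads), so these mice moved in opposite directions. The mature row of mir-182 held 68 and 1959 reads in mouse 1 and 1797 and 937 in mouse 2, right first. The left library of mouse 2 is rRNA-rich (6.20% against 0.321% on the right), and the right library of mouse 1 had more rRNA than the left (0.878% against 0.362%). The right library of mouse 1 is also poor in retinal miRNAs. Its mature rows of mir-182, mir-183 and mir-96 summed to 52.9 RPM, against 943 on the left. Those of mir-124 and mir-9 summed to 2612 RPM, against 11977 on the left. Whether rRNA content or the content of retinal miRNAs has a part in these differences was not tested.

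By row, mir-141, an epithelial microRNA, was higher on the right by 2.09 (log2, SE 0.70, adjusted p = 0.966 by edgeR), with 23 reads against 1 in mouse gRho mouse 1, 13 against 0 in mouse 2 and 11 against 1 in uninjected mouse 1. In the other 5 mice either eye held 0 to 3 reads. The right library of mouse gRho mouse 1 is the one described above as poor in retinal miRNAs. The mir-149 row was higher on the right by 1.00 (SE 0.66, adjusted p = 0.966 by edgeR). Of the 18 rows, 11 were higher and 7 lower on the right, with a median of 0.16 against -0.0011 over all rows.

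In the 10 mice under 1% rRNA, the summed level and the rRNA share gave a Pearson r of -0.25 (permutation p = 0.478) and a Spearman rho of -0.18 (permutation p = 0.633), neither past the threshold. Without the 2 mice farthest from the median rRNA share, r was -0.33. The other 5 mice form a separate cluster of higher rRNA content, too few for a correlation of their own, and no pooled value is given.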

How the data were processed

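For 23 libraries of mouse retina, the authors deposited raw counts of reads by locus and class, and a second table of counts by library and alignment class. RNA was taken with Trizol from frozen retinas and libraries were made with a NEXTflex small RNA v3 kit, per the labels' protocols. The submitters' processing notes name DESeq2 without a version. The aligner, the annotation, the strand setting and the build were not given in the sources used here. Hairpins and their coordinates (RefSeq, GRCm38.p6) were therefore matched by name only. The matrix had 0 unused columns.

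Counts of 1 mouse were summed and fitted with edgeR 4.0.16 (R 4.3.3, quasi-likelihood, robust), all 5 groups in 1 fit. Library sizes were the mature miRNA reads, with TMM factors from mature rows. Rows needed 10 counts in at least 3 mice (442 rows). Set aside were 65 mature rows that jump between levels (highest count at least 30 and a gap in sorted log2(CPM + 0.5) of at least 3.5, or a gap of 2 or more that leaves 2 or more libraries on either side). The mir-1983 stem-loop row also meets that rule and was kept. Printed levels use mature miRNA reads without TMM. Right and left retinas were fitted with a term for the mouse. Summed levels were tested by exact permutation over mice (SciPy 1.17.1). The labels do not say that libraries come from separate animals, so p-values cover only the spread between the summed samples, which may be technical. DESeq2 1.42.0 and the other alternatives are given in the closing section. On simulated counts for 442 rows (mouse gRho against uninjected), 49 of 50 rows lowered by a log2 change of 3 and 31 of 50 lowered by 1.5 were called. The changed rows were drawn from all 442, most of them mature rows, with the same fixed dispersion for every row and no TMM. These counts therefore do not give the chance of calling a change in a stem-loop row, nor in the other comparisons.

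The members, lists and rules were chosen with earlier results of these data known. Named rows are the 15 with the highest mean share over mice, the 2 with the smallest p in each comparison, up to 3 per list with the other rows of the same locus, and the 2 most like mir-182. Families of copies, rows without overlap and the rows in which WT mouse 2 stands apart were chosen after the values were seen. The rRNA correlation was planned over 15 mice and limited to 10.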

Additional observations from a re-analysis of the deposited data

Results flagged for a closer look

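Among 17 checks for a single mouse far from the others of its group, 2 found one, and chance alone flags about 1 in 20. The summed stem-loop level without mir-182 was 13.3 RPM in mouse gRho mouse 4, the lowest of the 7 mouse gRho mice, with the next at 21.3. The mir-1983 level was 8.04 RPM in mouse gRho mouse 6, the highest of the 7, with the next at 2.14. Its single library is one of the 6 with over 3% rRNA.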

How the results depend on the processing

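Of 141 recomputed counts of called stem-loop rows, 137 were 0. The exceptions were 2 rows for uninjected against WT without the filter on low counts (mir-96 and mir-708, lower in uninjected), 1 with the stem-loop rows alone in the fit (let-7c-2), and 4 without WT mouse 1, which gives a range of 0 to 4 when each mouse is left out, for uninjected against WT and for mouse gRho against WT alike. Of 99 recomputed differences in the summed level, 75 kept their direction and their side of the threshold. Differences near 0 changed sign. Without mir-182 the log2 differences were 0.77 (uninjected against WT), 0.57 (mouse gRho against WT) and 0.080 (mouse gRho against saline), and the correlation with rRNA was 0.075. Without the rRNA-rich libraries they were 0.0013, 0.049 and 0.15, and 0.048 for mouse gRho against uninjected. With total reads as the scale, mouse gRho against uninjected was 0.10 and saline against uninjected 0.30 (0.081 with aligned reads). With total reads and without mir-182, an alternative chosen after seeing the data, uninjected against WT was 0.35, mouse gRho against WT 0.34 and saline against uninjected 0.11. With the right retina of mouse gRho mouse 1 and uninjected mouse 2 left out, both low in retinal miRNAs, mouse gRho against saline was 0.0086. Leaving out each mouse gave -0.74 to 0.72 for uninjected against WT (0.016 without uninjected mouse 3), -0.83 to 0.63 for mouse gRho against WT (0.0057 without mouse gRho mouse 6), -0.13 to 0.24 for mouse gRho against saline, -0.22 to 0.15 for mouse gRho against uninjected (0.013 without mouse gRho mouse 6) and -1.38 to -0.91 for human gRHO against mouse gRho. For mir-182, mouse gRho against saline was -0.21 with loop reads as library size and -0.090 with each library as a sample, right against left -0.0092 with loop reads, and saline against uninjected -0.12 without rRNA-rich libraries. Leaving out each mouse gave mir-182 ranges of -1.30 to 0.55 (mouse gRho against WT), -0.19 to 0.36 (mouse gRho against saline) and -0.32 to 0.43 (right against left). Human gRHO against uninjected stayed lower in all alternatives of the summed level. The cause of these changes was not tested. Stem-loop reads are few, and rows under 10 reads give no usable comparison. Right and left retinas were paired by mouse. Between groups of mice, no paired analysis was possible because replicate numbers were given in accession order and do not pair mice across groups.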
